A study of Mus musculus with 32 samples.

Results

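Activity-induced immediate early genes were followed through RNA-seq of the amygdala and hippocampus of 16 adult male mice of 4 genotypes. The 43 genes were taken from a fixed list of neuronal activity-induced genes, matched by symbol through the GENCODE annotation, out of 53715 genes in the tables. The list names genes by their known induction and uses no threshold on these data, although earlier results of the data were known when it was chosen. They fall into 8 AP-1 and bZIP factors, 12 other transcription factors, 17 feedback and signalling regulators, and 6 synaptic and secreted effectors. All 43 were detected well enough to be tested in each comparison described here, and the transcripts of *Bdnf* and *Homer1* were read from the isoform tables.

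Fathers of the 129S1/SvImJ strain carried 1 deleted copy of *Kmt2a*, mothers of the C57BL/6J strain carried 1 deleted copy of *Kdm5c*, and their F1 sons were studied. KMT2A writes and KDM5C removes methylation of histone H3 lysine 4. WT males carried neither deletion, *Kmt2a*-HET males had lost 1 copy of *Kmt2a*, *Kdm5c*-KO males had lost their only copy of the X-linked *Kdm5c*, and DM (double mutant) males carried both deletions. Both deletions were constitutive and not limited to a cell type, all mice shared the hybrid background, the ages of single mice within adulthood were not used here, and the time between the last behavioural test or handling and tissue collection was not given in the sources used here. Each genotype had 4 mice, each mouse gave 1 amygdala and 1 hippocampus library, and each library held between 19215503 and 27798980 gene counts.

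Immediate early genes are switched on within minutes of synaptic activity without new protein synthesis, through calcium and kinase signalling that reaches factors such as CREB, SRF and MEF2 already bound near their promoters. The first products are mostly transcription factors, together with inhibitors that end the signal and effectors that act at synapses. Because they follow recent activity, their mRNA levels in a dissected brain region depend on what the animal did shortly before the tissue was taken.

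To show what lies in front of these genes, 250 bases upstream of the transcription start are printed for 5 factors whose level varied between mice and for *Nr4a3* and *Plk2*, whose level separated the regions. Sequences are from RefSeq on GRCm38.p6, 5′ to 3′ on the strand of the gene, and capitals mark the core of the cAMP response element, CGTCA, on either strand (read as TGACG on the other), the full element TGACGTCA in *Plk2*, and the CArG box, the element of SRF, in *Egr2*. The windows are chr12:85473640-85473889 (plus strand) for *Fos*, chr8:84978749-84978998 (minus) for *Junb*, chr10:67537619-67537868 (plus) for *Egr2*, chr19:4989972-4990221 (minus) for *Npas4*, chr15:101266596-101266845 (plus) for *Nr4a1*, chr4:48045055-48045304 (plus) for *Nr4a3*, and chr13:110394794-110395043 (plus) for *Plk2*.
Fos: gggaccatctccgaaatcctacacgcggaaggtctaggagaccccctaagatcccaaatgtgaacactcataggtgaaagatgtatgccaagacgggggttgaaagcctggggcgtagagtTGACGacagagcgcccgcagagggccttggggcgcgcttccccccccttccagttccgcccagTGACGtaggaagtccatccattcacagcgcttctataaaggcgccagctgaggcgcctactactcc
Junb: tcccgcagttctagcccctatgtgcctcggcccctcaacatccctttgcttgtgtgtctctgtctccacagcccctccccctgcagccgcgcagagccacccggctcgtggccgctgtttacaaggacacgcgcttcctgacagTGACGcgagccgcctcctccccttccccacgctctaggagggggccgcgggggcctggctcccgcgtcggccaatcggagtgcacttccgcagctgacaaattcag
Egr2: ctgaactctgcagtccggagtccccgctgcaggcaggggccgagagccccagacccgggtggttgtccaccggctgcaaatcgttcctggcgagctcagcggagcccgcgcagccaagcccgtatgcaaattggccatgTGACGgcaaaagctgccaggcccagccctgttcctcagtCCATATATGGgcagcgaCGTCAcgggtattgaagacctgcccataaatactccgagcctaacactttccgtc
Npas4: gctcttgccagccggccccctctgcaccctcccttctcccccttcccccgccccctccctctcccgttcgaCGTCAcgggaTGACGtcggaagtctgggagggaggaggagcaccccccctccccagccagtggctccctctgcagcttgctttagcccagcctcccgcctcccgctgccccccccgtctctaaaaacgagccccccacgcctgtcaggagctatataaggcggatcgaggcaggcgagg
Nr4a1: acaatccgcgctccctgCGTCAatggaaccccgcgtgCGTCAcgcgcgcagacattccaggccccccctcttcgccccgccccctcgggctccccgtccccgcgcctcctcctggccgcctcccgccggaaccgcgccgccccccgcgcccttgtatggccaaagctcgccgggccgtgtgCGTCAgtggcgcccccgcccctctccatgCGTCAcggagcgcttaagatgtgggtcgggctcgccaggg
Nr4a3: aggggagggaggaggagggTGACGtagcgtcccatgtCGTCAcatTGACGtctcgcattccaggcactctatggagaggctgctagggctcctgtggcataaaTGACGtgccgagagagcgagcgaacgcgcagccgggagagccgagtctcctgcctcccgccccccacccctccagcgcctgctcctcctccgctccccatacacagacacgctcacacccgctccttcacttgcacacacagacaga
Plk2: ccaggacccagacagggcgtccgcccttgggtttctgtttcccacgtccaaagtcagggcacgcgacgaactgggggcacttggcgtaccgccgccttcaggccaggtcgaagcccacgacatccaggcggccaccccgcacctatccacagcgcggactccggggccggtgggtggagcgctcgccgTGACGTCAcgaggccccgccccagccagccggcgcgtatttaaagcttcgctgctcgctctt

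RefSeq promoters were at hand for 34 of the 43 genes. The core CGTCA lay in the 250 bases of 22 of them (64.7%), against 19.8% of 27025 genes with a promoter. The full element TGACGTCA was found for 4 (*Btg2*, *Dusp1*, *Maff* and *Plk2*, 11.8% against 1.77%), and the CArG box for *Dusp5* and *Egr2* (5.88% against 1.62%). The AP-1 site TGAGTCA was found for *Csrnp1* alone (2.94% against 5.16%) and the EGR site GCGTGGGCG for *Maff* alone (2.94% against 0.622%). These are matches of letters on both strands, with the full element also counting as a core.

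The targeted genes and the tissues were checked first. Gene-level *Kdm5c* counts (normalised for library size, as are all counts below) averaged 1570.4 ± 324 for WT amygdala, 1259 ± 94.3 where *Kdm5c* alone was deleted and 1239 ± 55.4 for DM (SD, n = 4), and those of *Kmt2a* were 4107 ± 476 in *Kmt2a*-HET amygdala against 4076 ± 1459 in WT. The deletions remove only part of each transcript, so gene totals check the labels weakly, and those of *Kmt2a* not at all. The genotype of *Kmt2a*-HET mouse 2 is in doubt, since the animal number in its label is entered as DM in behaviour records. *Kdm5c* counts of the 4 mice labelled *Kmt2a*-HET, mouse 2 included, ran from 1643 to 1798 in hippocampus, against 1371 to 1481 for DM and 1184 to 1409.7 for *Kdm5c*-KO. In amygdala they ran from 1385 to 1608, against 1179 to 1313 for DM and 1199 to 1400 for *Kdm5c*-KO. WT counts went down to 1177 in amygdala and 1463 in hippocampus and overlapped those of DM in both, so this check is weak too. The label was kept. Without mouse 2 none of the counts of called genes below moved by over 1.5 times. Markers separated the regions in part. *Fibcd1*, a hippocampal marker, stood at 292 to 610.5 in amygdala and 2690.3 to 6359 in hippocampus. *Meis2*, an amygdala marker, stood at 1355 to 3513 in amygdala and 394 to 1215 in hippocampus. *C1ql2*, *Lct*, *Spink8*, *Tac2* and *Tshz1* did not overlap either. Of the hippocampal list *Prox1*, *Tdo2* and *Bok* overlapped between regions, and of the amygdala list *Prkcd*, *Isl1* and *Rspo2*. *Rspo2* was even higher in hippocampus (139 to 607) than in amygdala (37.7 to 157). The 4 mice numbered 1 in their genotype stood apart before any of the genes was considered. Their amygdala libraries had fewer detected genes (21764 to 22652, against 22573 to 23252 in the other 12), a smaller share of counts from genes over 5000 bases long (25.1 to 28.8%, against 30.3 to 35.4%), less of a summed list of 5 neuronal markers (2895 to 3204 CPM, where CPM is a count scaled to a fixed library total, against 3412 to 3772) and, in sum over 6 markers, 280.4 to 375 CPM of microglial RNA against 233 to 287. Choroid plexus markers reached 1859 CPM in amygdala of DM mouse 1 and 4624 CPM in hippocampus of *Kdm5c*-KO mouse 1, where striatal markers also stood at 832 CPM against at most 238 in hippocampus of mice numbered 2 to 4. These 2 marker lists varied in other mice too. In mice numbered 2 to 4, choroid plexus markers reached 344 CPM in amygdala and 1159 CPM in hippocampus. Striatal markers in their amygdala ran from 457 to 3147 CPM. The main results are also given without the mice numbered 1, which does not remove the variation of these 2 lists.

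The first question was how the genes are expressed in the 2 regions. Per unit of transcript length, the mean level ran from 0.864 TPM (counts per base of transcript, scaled to a fixed total) for *Atf3* to 439 TPM for *Jund* in amygdala, with a median of 9.29 TPM over the 43 genes, and from 1.03 TPM to 324 TPM for the same pair in hippocampus, with a median of 17.3 TPM. *Plk2*, a kinase that weakens overactive synapses, followed *Jund* at 103 ± 14.2 TPM in amygdala and 193 ± 30.1 TPM in hippocampus (SD, n = 16). *Fos* itself was modest, at 10.7 ± 7.28 and 9.59 ± 8.36 TPM, and its SD was close to its mean.

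Individual mice differed widely in the fast transcription factors. *Fos* encodes a protein that pairs with JUN proteins to form AP-1. In amygdala, listing mice 1 to 4 in order, WT mice had normalised *Fos* counts of 392, 152, 96.4 and 80.7, *Kmt2a*-HET mice had 374, 223, 91.9 and 119, *Kdm5c*-KO mice had 318, 69.2, 104 and 86.1, and DM mice had 444, 56.5, 333 and 74.6. In hippocampus, in the same order, WT mice had 401, 70.8, 68.8 and 117, *Kmt2a*-HET mice had 412, 297, 55.9 and 50.9, *Kdm5c*-KO mice had 175, 55.3, 50.0 and 93.6, and DM mice had 441, 29.7, 342 and 38.9. Mouse 1 was the highest of its genotype in all 8 groups, DM mouse 3 was nearly as high, and the 4 genotypes overlapped throughout. The highest value was 7.87 times the lowest in amygdala and 14.8 times in hippocampus.

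*Junb*, the JUN family member that joins FOS after stimulation, was spread in the same way. In amygdala WT mice gave 1775, 744, 721 and 644, *Kmt2a*-HET mice gave 1322, 916, 522 and 677, *Kdm5c*-KO mice gave 1384, 672, 628 and 779, and DM mice gave 1626, 648, 1338 and 666. In hippocampus WT mice gave 2276, 1047, 1148 and 1122, *Kmt2a*-HET mice gave 1921, 1773, 989.5 and 1313, *Kdm5c*-KO mice gave 1214, 1127, 1140.2 and 1203, and DM mice gave 2623, 856, 1930.1 and 882. Mouse 1 was again the highest of each group, by little in *Kdm5c*-KO hippocampus.

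*Egr1* is a zinc finger factor with a high resting level in forebrain neurons. In amygdala WT mice had 3274, 1802, 2018 and 1985, *Kmt2a*-HET mice had 3387, 2162, 1178 and 1622, *Kdm5c*-KO mice had 2837, 1349.6, 1443 and 1899, and DM mice had 3289, 1465, 2959.7 and 1537. In hippocampus WT mice had 3741, 2968, 2535 and 3285, *Kmt2a*-HET mice had 3777, 5033, 2011 and 2571, *Kdm5c*-KO mice had 2238, 2256, 2044 and 2736, and DM mice had 4629, 1922, 3192 and 1777. Mouse 1 led in the 4 amygdala groups, whereas in hippocampus *Kmt2a*-HET mouse 2 and *Kdm5c*-KO mouse 4 were the highest of their genotypes.

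*Npas4* encodes a factor induced by calcium entry and largely restricted to neurons. In amygdala WT mice gave 339.6, 151, 102 and 134, *Kmt2a*-HET mice gave 228, 147, 129.7 and 89.9, *Kdm5c*-KO mice gave 358, 181, 129 and 205, and DM mice gave 275, 107, 315 and 153. In hippocampus WT mice gave 340.3, 230.2, 149.9 and 219.9, *Kmt2a*-HET mice gave 296, 249, 184 and 173, *Kdm5c*-KO mice gave 304, 175, 146 and 209, and DM mice gave 363, 178, 299.6 and 118. Mouse 1 was the highest in 7 of the 8 groups, the exception being DM amygdala, where mouse 3 was higher.

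*Nr4a1* encodes an orphan nuclear receptor. In amygdala WT mice had 1270.3, 531, 502 and 526, *Kmt2a*-HET mice had 1509, 686, 414 and 608, *Kdm5c*-KO mice had 892, 506, 416 and 585, and DM mice had 1498, 348, 1285 and 438. In hippocampus WT mice had 2028, 1234, 1158 and 1338, *Kmt2a*-HET mice had 2221, 2159, 983 and 1191, *Kdm5c*-KO mice had 825, 966, 1002 and 1260.2, and DM mice had 2766, 849.8, 2263 and 757. *Kdm5c*-KO mouse 1, the highest of its genotype in amygdala, was the lowest in hippocampus.

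*Arc*, whose protein promotes removal of AMPA receptors from synapses, showed the same mice among the effectors. In amygdala WT mice gave 1666, 689, 694 and 711, *Kmt2a*-HET mice gave 1572, 645, 509 and 560.3, *Kdm5c*-KO mice gave 1057, 459.7, 505 and 705, and DM mice gave 2062, 551, 2017 and 393. In hippocampus WT mice gave 5004, 2007, 1969.8 and 1718, *Kmt2a*-HET mice gave 3947, 2744, 1619 and 2078, *Kdm5c*-KO mice gave 1376, 1754, 2082 and 2243, and DM mice gave 6741, 1586, 4741 and 1318. WT mouse 1 stood far above the other 3 WT mice in both regions, and in *Kdm5c*-KO hippocampus mouse 1 was the lowest.

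**Figure D1:**
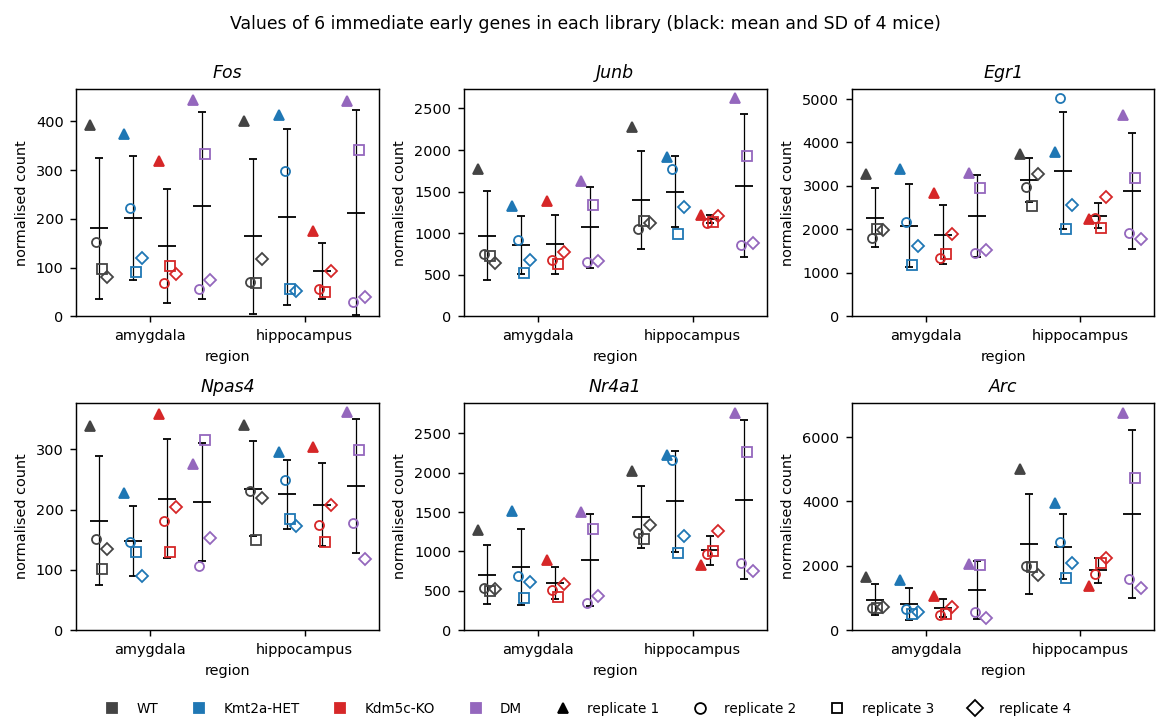
Normalised counts (y axis) of 6 genes in each library, grouped by region and, by colour, genotype; symbols give the replicate number, filled triangles are the mice numbered 1, and black bars are the mean and SD of 4 mice. *Fos* ran from 56.5 to 444 in amygdala with every genotype spanning low and high mice, and filled triangles lie at the top of most groups.

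*Bdnf*, the secreted neurotrophin, had its highest value in mouse 1 in 3 of the 4 genotypes in amygdala. For amygdala WT mice had 473, 244, 291 and 152, *Kmt2a*-HET mice had 312, 217, 222 and 246, *Kdm5c*-KO mice had 154, 197, 304 and 226, and DM mice had 294, 149, 181 and 195. For hippocampus WT mice had 912, 816, 736 and 523, *Kmt2a*-HET mice had 936, 620.5, 782 and 1023, *Kdm5c*-KO mice had 462, 919, 783 and 711, and DM mice had 1103, 839, 876 and 917. Hippocampus was higher in every mouse, and the ranges of the regions overlapped through *Kdm5c*-KO mouse 1 at 462 in hippocampus and WT mouse 1 at 473 in amygdala.

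*Homer1*, whose short form uncouples the synaptic scaffold, was the steadiest of the 8 genes given by library. For amygdala WT mice gave 1601, 1376, 1857 and 2618, *Kmt2a*-HET mice gave 2015, 1395, 1125 and 1433, *Kdm5c*-KO mice gave 1937, 1333, 1399.8 and 1789, and DM mice gave 2072, 1953, 1832 and 1305. For hippocampus WT mice gave 2029, 2697, 1906 and 2728, *Kmt2a*-HET mice gave 2786, 2804, 2493 and 2518, *Kdm5c*-KO mice gave 2062, 1983, 2293 and 2117, and DM mice gave 2677, 2451, 2159 and 2227. In amygdala the genotypes overlapped and WT mouse 4 was the highest, while in hippocampus the values of WT mice spanned those of most others.

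The next question was whether genotype changed these genes. In 15 of 16 genotype comparisons (6 contrasts and 2 single-gene factors in each region) none of the 43 genes passed an adjusted p of 0.1 in DESeq2, where between 0.0% and 2.66% of all genes tested did. Against WT amygdala, *Kmt2a*-HET had 0.00988% of genes called, *Kdm5c*-KO 0.751% and DM 0.966%, and the same contrasts had 0.0%, 1.01% and 0.875% in hippocampus. Between DM and *Kdm5c*-KO the shares were 0.00329% and 0.0067%, between DM and *Kmt2a*-HET 0.845% and 0.603%, for the interaction 0.00329% and 0.0%, for *Kdm5c* loss 1.68% and 2.66%, and for *Kmt2a* heterozygosity 0.0% and 0.103%, in amygdala and hippocampus respectively. At an unadjusted p of 0.05, 38 of 688 gene-by-comparison tests of the 43 genes passed (5.52%), against 4.91% of those of all genes, and edgeR called none of the 43 in any comparison.

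The intervals were wide for the genes that varied most between mice. The *Fos* log2 fold change of *Kdm5c*-KO over WT in hippocampus was -0.81 with a 95% interval from -2.62 to 1.0, and that of DM over WT in amygdala was 0.33 (-1.15 to 1.82). For *Arc* in *Kdm5c*-KO hippocampus it was -0.52 (-1.55 to 0.51), and for *Homer1* in DM hippocampus, where the spread was small, 0.02 (-0.21 to 0.25). Changes of *Fos* inside these wide intervals were not detectable with 4 mice a genotype, whereas for hippocampal *Homer1* in DM the interval was narrow relative to the median gene. On spike-in scaling the same *Homer1* value was -0.69 (-1.78 to 0.40).

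Medians over the 43 genes against WT were small beside the intervals above. For *Kmt2a*-HET, *Kdm5c*-KO and DM in that order, the median log2 fold change was -0.04, -0.17 and 0.12 in amygdala and 0.07, -0.18 and 0.08 in hippocampus, where the medians of all genes lay between -0.01 and 0.00. In the same order, 18, 10 and 29 of the 43 genes were above 0 in amygdala and 26, 11 and 31 in hippocampus. The genes vary together between mice, so these counts are no test. Scaling on the ERCC spike-in RNA moved the median of all genes by as much as -0.71 (DM against *Kdm5c*-KO, hippocampus), and under it the medians of the 43 genes became 0.17, -0.01 and -0.05 in amygdala and 0.02, 0.08 and -0.35 in hippocampus, again with no gene called. The spike-in share of counts varied within a genotype, from 0.12 to 0.511% in WT amygdala and from 0.0503 to 0.295% in WT hippocampus. All values on spike-in scaling carry that spread.

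*Inhba*, which encodes the activin A subunit secreted by active neurons, was the single exception. In hippocampus WT mice had 95.9, 166, 131 and 117, *Kdm5c*-KO mice had 92.0, 117, 109 and 108, *Kmt2a*-HET mice had 335, 169.6, 125 and 238, and DM mice had 254, 196, 162 and 128. The 8 mice with 1 copy of *Kmt2a* were on average higher, at 201.1 ± 71.6 against 117 ± 23.4 in the 8 others, and both sets overlapped. The factor for *Kmt2a* heterozygosity gave a log2 fold change of 0.78 (SE 0.19, DESeq2 adjusted p = 0.0663). The call rested on few libraries and on the method. It was lost in edgeR (adjusted p = 0.548), with spike-in scaling (0.34, adjusted p = 0.83 in DESeq2), without the libraries numbered 1 (0.45, adjusted p = 0.295), and in 10 of 15 fits that left out 1 library (DESeq2 gave no adjusted p without WT mouse 2), over which the DESeq2 adjusted p ran from 5.42e-04 to 0.365.

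For *Inhba* in amygdala, WT mice had 42.7, 68.0, 111 and 158, *Kmt2a*-HET mice had 204, 74.6, 55.8 and 98.9, *Kdm5c*-KO mice had 144, 45.5, 22.6 and 119.9, and DM mice had 169, 140.3, 119 and 61.1. High and low mice occurred in each genotype there.

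Where no gene was called, the one with the smallest unadjusted p is described for each comparison. In amygdala, *Plk2* was lowest in *Kmt2a*-HET, at 2299.99 ± 252 against 2855 ± 473 in WT and 2928 ± 281 in DM (SD, n = 4). Its log2 fold change was -0.31 against WT, 0.35 for DM over *Kmt2a*-HET, and 0.49 for the interaction, with DESeq2 adjusted p of 1.0, 0.432 and 1.0, and with spike-in scaling the 0.35 became -0.05 and the 0.49 became -0.09. *Klf4*, a Krüppel-like factor, ran from 96.1 to 131 in *Kdm5c*-KO and from 73.3 to 91.1 in WT amygdala, so that the groups did not overlap (log2 fold change 0.46, DESeq2 adjusted p = 0.513). In that comparison 2 of the 43 genes did not overlap, against 2.57% of all genes. *Ier3*, an early response gene linked to cell survival, stood at 117 to 138 in DM and 70.5 to 120.5 in WT amygdala (0.43, DESeq2 adjusted p = 0.529) and gave 0.30 for *Kdm5c* loss (adjusted p = 0.374).

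Of the remaining amygdala comparisons, *Dusp1*, a phosphatase that switches off MAP kinases, ran from 317 to 802 in DM and from 282 to 455 in *Kdm5c*-KO (0.69, DESeq2 adjusted p = 1.0). *Tiparp*, a mono-ADP-ribosyltransferase, ran from 190.6 to 406 in the 8 mice with 1 copy of *Kmt2a* and from 172 to 274 in the others (0.29, DESeq2 adjusted p = 1.0). Both sets of values overlapped.

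In hippocampus, *Ier5* ran from 946 to 1326 in *Kdm5c*-KO and from 1341 to 2023 in WT, without overlap (-0.57, DESeq2 adjusted p = 0.5). *Ptgs2*, the inducible cyclooxygenase of excitatory neurons, ran from 497 to 743 in DM and from 239.97 to 492 in WT, also without overlap (0.66, DESeq2 adjusted p = 0.405). *Inhba* in DM exceeded every *Kdm5c*-KO mouse (0.79, DESeq2 adjusted p = 0.788), and it had the smallest p in *Kmt2a*-HET against WT too (0.77, DESeq2 adjusted p = 1.0). Groups did not overlap for 1 of the 43 genes in *Kdm5c*-KO against WT (4.16% of all genes), 2 in DM against WT (5.05%) and 2 in DM against *Kdm5c*-KO (3.96%). None of these passed in the fit of 16 libraries, whereas fits of the 2 groups alone called *Ier5* and *Ptgs2*.

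*Fosl2*, an AP-1 partner induced later than FOS, averaged 1000.65 ± 369 in DM against 1439 ± 246 in *Kmt2a*-HET hippocampus (-0.53, DESeq2 adjusted p = 0.814), and gave -0.43 for *Kdm5c* loss (DESeq2 adjusted p = 0.216). *Nptx2*, a pentraxin that clusters AMPA receptors, had the smallest p for the hippocampal interaction (0.53, DESeq2 adjusted p = 1.0). Whether genotype effects differed between the regions was tested directly, and 0 of the 43 genes passed for any genotype, where 0.00312%, 0.00624% and 0.00936% of genes did for *Kmt2a*-HET, *Kdm5c*-KO and DM. At an unadjusted p of 0.05 the 43 genes gave 1, 0 and 1 (against 1.78%, 1.99% and 2.01% of genes), and edgeR called none. The smallest p belonged to *Homer1* (difference of log2 fold changes 0.50), *Dusp5* (0.69) and *Bdnf* (0.83), each with a DESeq2 adjusted p of 1.0.

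Genes of 2 related sets were counted as well. Of 32 genes of the upstream pathway (receptors, kinases, and the factors they act on), 0 were called in any genotype comparison. Of 18 other activity-induced genes, *Sgk1* alone was called, higher in *Kdm5c*-KO than in WT hippocampus, where 1.01% of all genes were called, and for *Kdm5c* loss there, where 2.66% were.

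The spread within a genotype was larger for the 43 genes than for most genes. The SD between mice of 1 genotype, on the log2 scale with a pseudocount of 1, had a median of 0.44 in amygdala and 0.42 in hippocampus, against 0.23 and 0.22 over all genes with a mean count of at least 10. In amygdala 39 of 43 lay above the median of all genes, and in hippocampus 40. *Egr2*, a zinc finger factor related to *Egr1*, and *Fos* were the most variable, with SDs of 1.34 and 1.12 in amygdala, above those of 98.9% and 98.3% of genes, and 1.26 and 1.47 in hippocampus. *Plk3*, *Plk2* and *Klf4* were among the steadiest in amygdala, at 0.19, 0.20 and 0.20.

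The deviations were shared between the regions of a mouse. Across the 16 mice, the deviation from the genotype mean in amygdala correlated with that in hippocampus with a median r of 0.58 over the 43 genes, against 0.20 over all genes. These correlations are descriptions over pairs of libraries that share an animal, and 24 of the 43 genes had an r above 0.5 (17.4% of all genes did). An r below 0 was found for 5 (*Nr4a2*, *Nr4a3*, *Ier3*, *Maff* and *Plk2*), against 29.3% of all genes. A mouse lay on the same side of its genotype mean in both regions in a median of 11 of 16 mice, against 9 for all genes, and in 7 of 12 against 6 without the mice numbered 1.

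A term for the individual mouse, fitted over 32 libraries beside genotype and region, tested this gene by gene. It passed an adjusted p of 0.1 (edgeR quasi-likelihood F-test) for 23 of the 43 genes, where 9.73% of 18188 genes did, and 7 of the 43 were among the first 100 genes. By role these were 5 of 8 AP-1 and bZIP factors, 7 of 12 other transcription factors, 9 of 17 feedback and signalling regulators, and 2 of 6 effectors (*Arc* and *Bdnf*). The smallest adjusted p belonged to *Egr2* (6.97e-07), *Fosb* (2.44e-06), *Fos* (3.77e-06), *Arc* (2.47e-05) and *Junb* (2.62e-05). A DESeq2 likelihood ratio test called 26, the 23 included, where 20.0% of genes passed. In the edgeR fit 6 of the 32 upstream pathway genes passed (*Grin2b*, *Ep300*, *Rps6ka3*, *Crebbp*, *Camkk2* and *Cacna1c*) and 3 of the 18 other activity-induced genes (*Per1*, *Spry4* and *Dusp14*), against the same 9.73% of all genes.

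*Egr2* was the clearest of these by mouse. For amygdala WT mice had 149.9, 27.4, 27.2 and 44.5, *Kmt2a*-HET mice had 124, 43.9, 22.3 and 18.0, *Kdm5c*-KO mice had 69.6, 16.1, 31.1 and 26.7, and DM mice had 113, 15, 99.9 and 7.25. For hippocampus WT mice had 115, 19.9, 26.6 and 31.4, *Kmt2a*-HET mice had 97.1, 51.1, 20.2 and 26.7, *Kdm5c*-KO mice had 44.9, 28.1, 36.7 and 21.4, and DM mice had 158, 8.62, 92.0 and 13. Mouse 1 was the highest in each of the 8 groups, and the *Egr2* deviation had the same sign in both regions in 15 of 16 mice (r = 0.93).

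*Fosb*, whose stable splice form accumulates under repeated stimulation, was also led by mouse 1. For amygdala WT mice gave 386, 171, 154 and 217, *Kmt2a*-HET mice gave 473, 179.8, 148 and 150.2, *Kdm5c*-KO mice gave 395, 147, 139.5 and 213, and DM mice gave 374, 200.3, 286 and 142. For hippocampus the values in the same order of genotypes were 352, 207, 174 and 291, then 478, 231, 145 and 164, then 367, 181, 127 and 186, then 382, 126, 275 and 179. The mice numbered 1 lay between 352 and 478 in both regions, above every other library of their genotype.

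**Figure D2:**
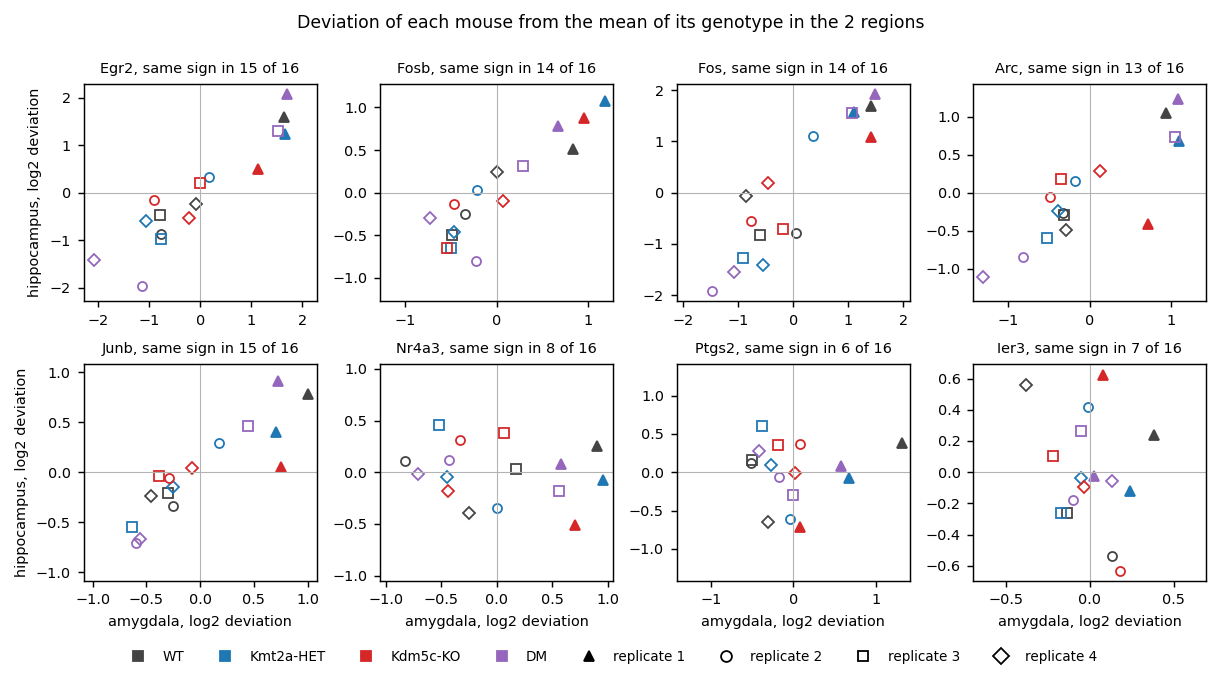
Deviation of each mouse from the mean of its genotype, as log2(normalised count + 1), in amygdala (x axis) and hippocampus (y axis) for 8 genes; colour is genotype, symbol the replicate number, and filled triangles are mice numbered 1. *Egr2* (same sign in 15 of 16 mice), *Fosb*, *Fos*, *Arc* and *Junb* lie along the diagonal, whereas *Nr4a3* (8 of 16), *Ptgs2* (6 of 16) and *Ier3* (7 of 16) do not.

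The 3 members of the NR4A family of nuclear receptors parted here. *Nr4a1* varied between mice (adjusted p = 2.42e-04, edgeR F-test) and its deviations were shared between regions (r = 0.83), while *Nr4a2* and *Nr4a3* did not pass (adjusted p = 0.574 and 0.648) and had r of -0.01 and -0.21. *Nr4a3* deviations were not small, with an SD of 0.65 in amygdala and 0.31 in hippocampus. A p that misses the threshold does not show that mice were alike in *Nr4a2* or *Nr4a3*, and whether the 3 genes differ in this term was not tested.

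The mice numbered 1 were often among the highest, though *Kdm5c*-KO mouse 1 less so than the others. In amygdala, 30 of the 43 genes were among the 4 highest of 16 libraries in WT mouse 1, 32 in *Kmt2a*-HET mouse 1, 17 in *Kdm5c*-KO mouse 1 and 38 in DM mouse 1, and DM mouse 3 had 22. In hippocampus the counts were 24, 28, 8 and 29 for the mice numbered 1 and 21 for DM mouse 3. Mouse 1 exceeded the mean of the other mice of its genotype in 4 of 4 genotypes for 32 of the 43 genes in amygdala (74.4%, against 18.9% of all genes, or 23.4% of genes up to 5000 bases) and for 17 in hippocampus (39.5%, against 14.5% of all genes, or 17.9% of those up to 5000 bases). The median difference was 0.55 and 0.34 on the log2 scale, against 0.00 and 0.02 over all genes. The same libraries had fewer counts from long genes and from neuronal markers (amygdala given above). In hippocampus the long-gene share was 28.1 to 30.6% against 30.5 to 36.5% in the other 12. Neuronal markers there were 3469 to 3786 CPM against 3871 to 4441, while microglial markers overlapped (245 to 266 against 196 to 281 CPM). Genes over 5000 bases differed in these libraries by a median of -0.19 in amygdala and -0.15 in hippocampus. Of the 43 genes 4 are that long, with a median difference of 1.01 in amygdala and 0.11 in hippocampus. The part of these library differences in the result was not tested.

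Without the mice numbered 1, the mouse term was called for 6 of the 43 genes (*Arc*, *Nr4a1*, *Junb*, *Egr2*, *Fos* and *Egr1*), all among the 23, where 0.514% of genes were. The smallest adjusted p among these in the edgeR F-test was that of *Arc*, 1.55e-04. How far these 6 calls rest on single mice, such as DM mouse 3, was not tested. The median SD went from 0.44 to 0.32 in amygdala (0.23 to 0.18 over all genes) and from 0.42 to 0.38 in hippocampus (0.22 to 0.19 over all genes), and the median r between regions from 0.58 to 0.24, against -0.02 over all genes.

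The 43 genes also moved with each other. Within amygdala the median r over their 903 pairs was 0.51, and 818 pairs were positive, against a median of 0.00 for pairs of all genes. In hippocampus it was 0.36 with 735 positive pairs. Without the mice numbered 1 the medians were 0.24 and 0.25. With *Fos* in amygdala, *Junb* (r = 0.96), *Nr4a1* (0.94), *Egr1* (0.92), *Dusp1* (0.92), *Arc* (0.92) and *Egr2* (0.92) ran closest, and 29 of the other genes on the list had an r above 0.5, against 14.1% of all genes. In hippocampus 25 did, against 15.7%, whereas *Ptgs2* and *Nr4a3* had an r of -0.40 and -0.37 with *Fos* there. The points are 16 libraries that share their size factors and, through the mice numbered 1, a length profile.

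**Figure D3:**
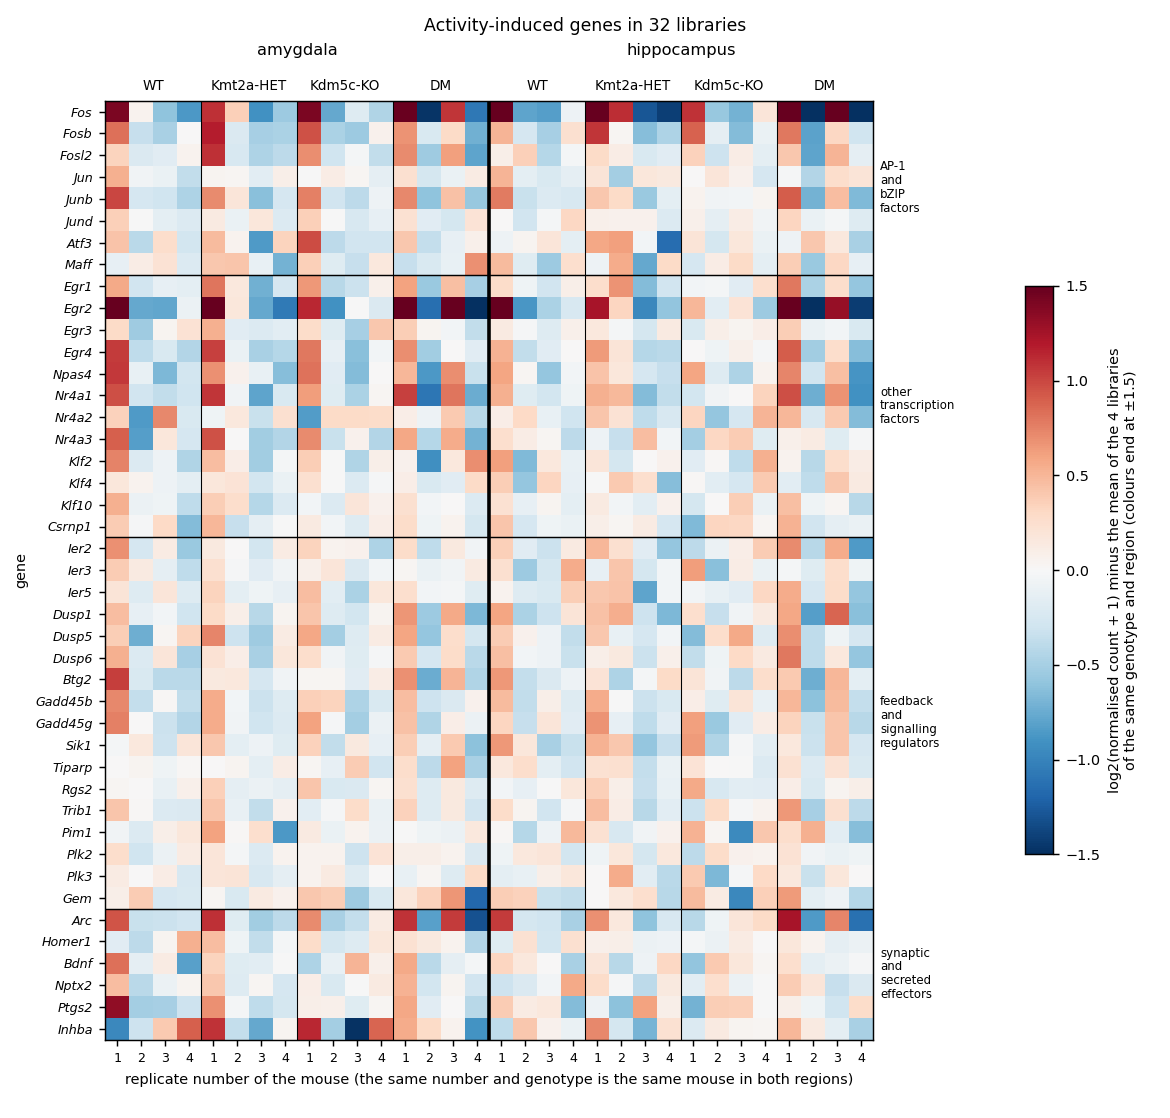
Deviation of each library from the mean of its genotype and region, in log2(normalised count + 1), for the 43 genes (rows, grouped by role) in 32 libraries (columns); red is higher and blue lower, and colours end at ±1.5. Columns of mice numbered 1 and of DM mouse 3 are red over most transcription factors in both regions, *Kdm5c*-KO mouse 1 in hippocampus excepted, and the amygdala column of DM mouse 1 holds 38 genes among the 4 highest of 16 libraries.

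The third comparison was between the regions themselves. Between hippocampus and amygdala 32 of the 43 genes (74.4%) passed an adjusted p of 0.1 in DESeq2, against 45.2% of 24580 genes, with 23 higher in hippocampus (21.8% of all genes) and 9 lower (23.4% of all genes). The median log2 fold change was 0.42 against -0.01 for all genes. Lower calls hold relative to the median gene: scaling on spike-in RNA moved the median of all genes from -0.01 to 0.64 and gave 31 genes higher and 1 lower. Fewer cells of a type and less RNA per cell cannot be told apart in bulk tissue.

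By role, 8 of 12 other transcription factors were higher in hippocampus and 0 lower, as were 5 of 6 effectors with 1 lower (*Nptx2*). Feedback and signalling regulators were split, with 7 higher and 6 lower of 17, and the AP-1 and bZIP factors had 3 higher (*Fosl2*, *Jun* and *Junb*) and 2 lower (*Jund* and *Maff*) of 8. *Fos*, *Fosb*, *Egr2* and *Npas4* were among the 11 not called. When the mouse was kept as a block, 36 were called (49.8% of all genes were), the 32 included, and 4 were added. Lower in hippocampus were *Fos* (-0.37, DESeq2 adjusted p = 0.017) and *Dusp1* (-0.28, adjusted p = 0.00408), and higher were *Npas4* (0.31, adjusted p = 0.00448) and *Trib1* (0.19, adjusted p = 0.00863). Without the mice numbered 1 and without the block, 34 of the 43 genes were called (44.6% of all genes were), and the log2 fold changes of the 10 genes described next kept their direction and call.

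*Nr4a3* separated the regions most. It ran from 144 to 592 in amygdala, with a median of 254, and from 1579 to 3871 in hippocampus, with a median of 2443, so that no library of either region overlapped (log2 fold change 3.07, SE 0.17, DESeq2 adjusted p = 9.46e-68). *Ptgs2* ran from 42.5 to 155 with a median of 64.1 in amygdala and from 239.97 to 749 with a median of 510.3 in hippocampus (2.86, SE 0.16, adjusted p = 5.73e-65). *Dusp5*, a nuclear phosphatase of ERK, ran from 58.8 to 191 with a median of 101 and from 315 to 853 with a median of 449 (2.24, SE 0.15, adjusted p = 2.83e-46). All 3 were higher in hippocampus in every library.

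*Plk2* ran from 1987 to 3392 with a median of 2668 in amygdala and from 3558 to 6478 with a median of 5275 in hippocampus (log2 fold change 0.95, SE 0.07, DESeq2 adjusted p = 3.87e-37). *Bdnf* ran from 149 to 473 with a median of 224 and from 462 to 1103 with a median of 828 (1.75, SE 0.13, adjusted p = 5.73e-37). *Plk2* did not overlap, and *Bdnf* did, through the 2 libraries named above.

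Among genes lower in hippocampus relative to the median gene, *Rgs2*, which shortens G protein signalling, ran from 920.1 to 1507 with a median of 995 in amygdala and from 402 to 844 with a median of 505 in hippocampus (-1.05, SE 0.08, DESeq2 adjusted p = 1.33e-34), and with spike-in scaling this became -0.40 (adjusted p = 0.14). *Sik1*, a salt-inducible kinase that restrains CREB coactivators, ran from 362 to 810.1 with a median of 529 and from 157 to 407 with a median of 225 (-1.05, SE 0.13, adjusted p = 1.11e-14), and with spike-in scaling this became -0.44 (adjusted p = 0.0843), the 1 lower call that remained. The values of *Rgs2* did not overlap between regions and those of *Sik1* did.

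*Ier3* ran from 70.5 to 138 with a median of 115 in amygdala and from 30.9 to 95.4 with a median of 57.9 in hippocampus (-0.89, SE 0.11, DESeq2 adjusted p = 2.42e-15), which became -0.24 (adjusted p = 0.464) on spike-in scaling. *Pim1*, a serine/threonine kinase, ran from 42.3 to 118 with a median of 78.7 and from 18.4 to 79.4 with a median of 48.9 (-0.78, SE 0.14, adjusted p = 6.39e-08), which became -0.09 (adjusted p = 0.805). *Jund*, the JUN family member with steady expression, ran from 5405 to 9198 with a median of 6709 and from 4178 to 7170.4 with a median of 5164 (-0.39, SE 0.07, adjusted p = 5.12e-07), and reversed to 0.27 (adjusted p = 0.345) on spike-in scaling. The ranges of the regions overlapped for these 3 genes.

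In all, 6 of the 43 genes had no overlap between the 16 amygdala and 16 hippocampus values (*Plk2*, *Rgs2*, *Nr4a3*, *Ptgs2*, *Dusp5* and *Klf10*), where 5.55% of 16585 genes had none. Of the upstream pathway genes 26 of 32 differed between regions (21 higher in hippocampus, 5 lower), and of the other activity-induced genes 13 of 18 (8 higher, 5 lower), against 45.2% of all genes tested.

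**Figure D4:**
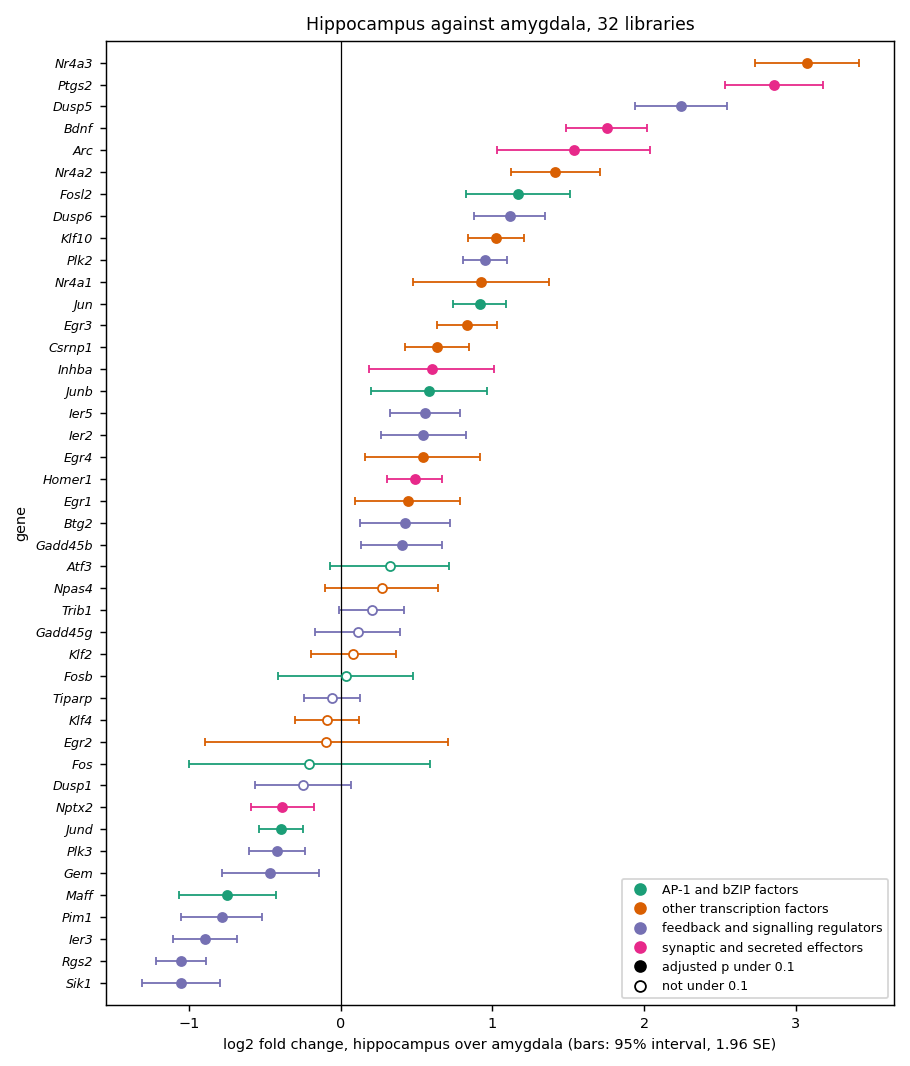
Log2 fold change of hippocampus over amygdala (x axis) for the 43 genes (y axis), with 95% intervals as bars; colour is the role and filled points passed an adjusted p of 0.1. *Nr4a3* (3.07), *Ptgs2* (2.86) and *Dusp5* (2.24) lie far to the right, *Fos* and *Egr2* have the widest intervals and cross 0, and the 9 filled points left of 0 are lower relative to the median gene (on spike-in scaling 1 of them, *Sik1*, was called lower).

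Transcripts of *Bdnf* and *Homer1* were examined last, since both genes make several. *Bdnf* transcripts share the coding exon and differ in their 5′ exons, which several promoters serve. *Homer1* makes long forms that link receptors and an activity-induced short form (coding for fewer than 200 amino acids here, 5 annotated transcripts, of which *Homer1-204* and *Homer1-207* held nearly all counts) that breaks these links. In genotype comparisons 0 of 144 transcript-by-comparison tests passed, and 5 had an unadjusted p under 0.05 in DESeq2, while edgeR called none. Of all transcripts, in amygdala and hippocampus, 0.241% and 0.16% passed for *Kmt2a*-HET against WT, 0.451% and 0.414% for *Kdm5c*-KO, 0.441% and 0.472% for DM, 0.247% and 0.149% for DM against *Kdm5c*-KO, 0.363% and 0.393% for DM against *Kmt2a*-HET, and 0.193% and 0.131% for the interaction.

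Between regions, 7 of 13 transcripts tested were called, where 24.0% of 69316 transcripts were. Without the mice numbered 1, 9 of 13 were called (25.5% of all transcripts), and with the mouse as block 7 (29.2%). *Bdnf-205* ran from 47.2 to 208 with a median of 91.3 in amygdala and from 269 to 633 with a median of 528 in hippocampus, without overlap (log2 fold change 2.38, SE 0.15, DESeq2 adjusted p = 6.00e-52). It made up 41.1 ± 9.29% of *Bdnf* transcript counts in amygdala and 64.6 ± 4.43% in hippocampus (SD, n = 16). *Bdnf-209* (1.85, adjusted p = 3.17e-10) and *Bdnf-210* (0.89, adjusted p = 0.0039) were also higher in hippocampus.

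*Bdnf-201* showed a smaller difference that did not pass (0.38, DESeq2 adjusted p = 0.274), with a median of 53.3 in amygdala and 73.9 in hippocampus, and its share of the gene was 23.1 ± 5.40% and 9.30 ± 3.59%. *Bdnf-208* was listed at 0 in all amygdala libraries and ran from 0 to 46.6 in hippocampus with a median of 1.85. It passed without the mouse block (adjusted p = 0.0177) and not with it (adjusted p = 0.61, both DESeq2), so its call rests on the model.

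Of the *Homer1* transcripts, the short *Homer1-207* ran from 309 to 737 with a median of 436 in amygdala and from 465 to 1021 with a median of 736 in hippocampus (0.61, SE 0.12, DESeq2 adjusted p = 4.74e-06). The long *Homer1-203* (0.33, adjusted p = 0.00302) and *Homer1-202* (0.31, adjusted p = 0.0439) rose less, and the short *Homer1-204*, with medians of 193 and 334, passed only with the mouse as a block (0.51, adjusted p = 0.157 without and 2.12e-04 with it). Estimates for overlapping transcripts depend on how shared reads were divided between them.

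The short forms made up 42.9 ± 4.76% of *Homer1* in amygdala and 47.5 ± 4.74% in hippocampus (SD, n = 16). The difference within a mouse was 4.54 percentage points (SD 4.44), positive in 13 of 16 mice (exact two-sided sign-flip permutation test, p = 7.32e-04), and 5.47 points in 12 mice without those numbered 1 (exact p = 0.00391). *Homer1-204* followed the mice: its share in amygdala was 21.3, 27.2, 26.8 and 19.5% in the mice numbered 1 of WT, *Kmt2a*-HET, *Kdm5c*-KO and DM, and 8.09 to 16.4% in the other 12. The mice numbered 1 were the highest in hippocampus too, at 18.6 to 34.5% against 6.65 to 16.2%.

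**Figure D5:**
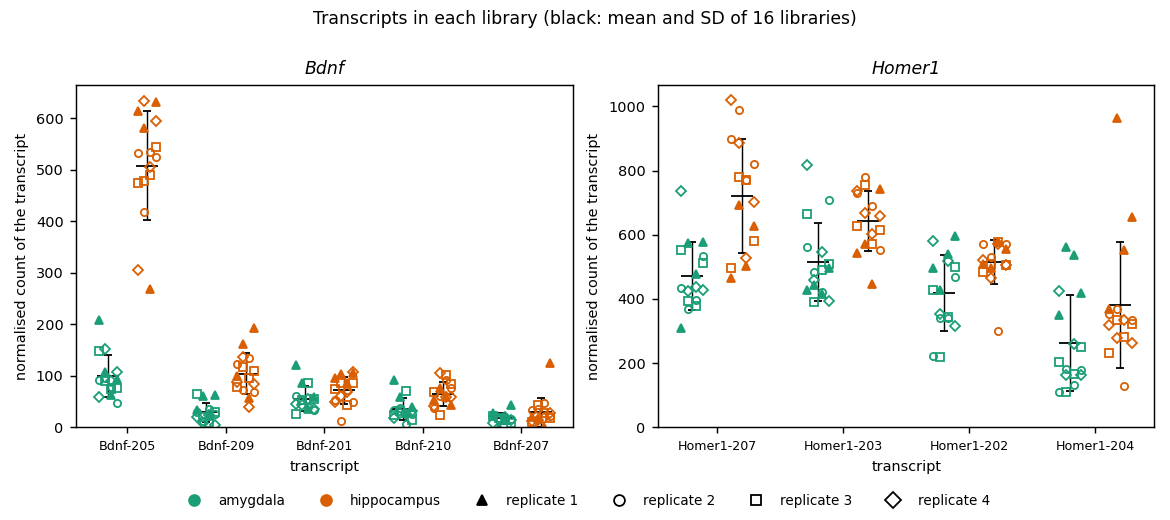
Normalised counts (y axis) of *Bdnf* and *Homer1* transcripts (x axis) in each library, green for amygdala and orange for hippocampus, with symbols for the replicate number and black bars for the mean and SD of 16 libraries. *Bdnf-205* is the transcript without overlap between regions (medians 91.3 and 528), and filled triangles, the mice numbered 1, are among the highest for *Homer1-204*.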

How the data were processed

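The authors aligned reads to mm10 with STAR 2.5.3a, kept unique reads, removed duplicates and, per the labels, counted with featureCounts (Subread 1.5.0). The deposited tables hold expected counts per gene and per transcript (estimated counts, 7.08% of values not whole), which were rounded before testing. Libraries were oligo-dT primed and directional, with ERCC spike-in RNA added at the stage of RNA purification. The total was 19215503 to 27798980 gene counts per library, and counting error is not small for genes with few counts, such as *Atf3* (10.7 ± 3.24 in WT amygdala, SD, n = 4). The ERCC rows were left out of library sizes.

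Samples were grouped by genotype and region as the labels give them, including *Kmt2a*-HET mouse 2, whose label is in doubt. The 43 genes and the lists were chosen with earlier results of these data known. DESeq2 1.42.0 (Wald test, adjusted p under 0.1, unshrunken fold changes, all 16 libraries of a region) gave the genotype comparisons, which share libraries within a region, an additive fit of both mutations gave the 2 factors, and a fit of genotype and region over 32 libraries gave the region comparison. The interaction is the DM effect beyond the sum of both single effects. edgeR 4.0.16 gave the mouse term and the alternative tests. Plotted and printed normalised counts use DESeq2 size factors over 32 libraries. TPM was computed from counts and annotated exon length. Each p-value across genes is a Benjamini-Hochberg adjusted value of DESeq2 or edgeR unless called unadjusted. Fits were tested on simulated data first.

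The 2 regions of a mouse share the animal per the labels, and deviations of the same mouse correlated above 0.1 in 12 of 16 mice (median 0.149), so the region fit was repeated with the mouse as block. Named by rule were *Fos*, *Arc*, *Egr1*, *Npas4*, *Nr4a1*, *Junb*, *Bdnf* and *Homer1* by library, called genes (the smallest p where none was called), and 5 genes in each direction for region and 5 for mouse. The *Egr2* and *Fosb* values by library come from the last. Alternatives were TMM and spike-in scaling, a low-count filter (10 counts in 4 libraries), a threshold of 0.05, edgeR, fits of 2 groups, replicate blocks, leaving out libraries, and a term for the libraries numbered 1 (chosen after seeing the data).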

Additional observations from a re-analysis of the deposited data

Results flagged for a closer look

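For 12 of the genes and the *Homer1* short-form share, each of 104 groups of 4 mice was searched for a mouse standing far from the other 3, by the gap to its neighbour as a share of the whole range (Dixon's 95% value for 4 samples). The search found 14 (13.5%), and 13 of the 14 were the mouse numbered 1. Chance marks about 1 in 20 independent groups, but these are correlated genes in the same 16 mice, and *Egr2* and *Fosb* were named for their spread between mice, so the share is no test. The part of the library differences of these mice was not tested.

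Among AP-1 factors, *Fos* stood apart in *Kdm5c*-KO mouse 1 in amygdala (318) and WT mouse 1 in hippocampus (401), *Fosb* in *Kmt2a*-HET mouse 1 in amygdala (473), and *Junb* in WT mouse 1 in amygdala (1775) and hippocampus (2276), all as normalised counts. Among the other transcription factors, WT mouse 1 stood apart for *Egr1* in amygdala (3274), for *Egr2* in amygdala (149.9) and hippocampus (115), and for *Nr4a1* in amygdala (1270.3). *Arc* did so in WT mouse 1 in amygdala (1666) and hippocampus (5004) and in *Kmt2a*-HET mouse 1 in amygdala (1572). The *Homer1* short-form share stood apart in amygdala of WT mouse 4 (44.8%) and *Kdm5c*-KO mouse 1 (50.7%).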

How the results depend on the processing

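Of 496 alternative values of 23 counts and shares, 471 kept their size or their side of the threshold and 25 moved, and of 663 values for single genes 637 kept direction and call. The single genotype call fell to 0 genes in edgeR, with spike-in scaling, at a threshold of 0.05 and without the libraries numbered 1. Leaving out 1 library gave 0 to 1 genes there, 0 to 1 for *Kdm5c*-KO and for DM against WT and for *Kdm5c* loss in amygdala, and 0 to 2 for *Kdm5c* loss in hippocampus. Fits of 2 groups alone called 1 gene each for DM against *Kmt2a*-HET in amygdala (*Plk2*), and for *Kdm5c*-KO (*Ier5*) and DM (*Ptgs2*) against WT in hippocampus, and without the libraries numbered 1 *Kdm5c*-KO against WT in hippocampus called 1. The cause was not tested. Without those libraries the mouse term called 6. *Jund* between regions reversed to 0.27 on spike-in scaling.

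The replicate numbers were not taken to pair genotypes. Libraries of different genotypes numbered 2 to 4 had median correlations of deviations between -0.09 and 0.07, while those numbered 1 went together (0.22 in amygdala and 0.23 in hippocampus). With the number as a replicate block the transcript calls rose from 7 to 23. Of these, 16 were genotype calls on 4 transcripts averaging at most 4.27 counts in a region, with fitted log2 fold changes of at least 16.1 in size, and no value is read from them. The block changed no other count by over 1.5 times. With 4 mice a genotype, a change in *Fos* within its interval was not detectable.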
